A study of Mus musculus with 32 samples.

Results

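The genes described here carry the growth hormone and insulin-like growth factor (IGF) axis. They are *Ghr*, *Igf1*, *Igfals*, *Socs2*, *Cish* and the IGF binding protein genes *Igfbp1*, *Igfbp2*, *Igfbp3*, *Igfbp4* and *Igfbp5*. They were chosen by symbol, and all 10 were found among the 24646 genes of each table, each as a single probe set. The series holds 32 Affymetrix arrays (Mouse Gene 2.1 ST), with 4 wild-type (WT) and 4 *Gpr146* knockout (KO) males measured in each of liver, epididymal white fat (eWAT), inguinal white fat (iWAT) and brown fat (BAT). *Gpr146* encodes an orphan G protein-coupled receptor. The KO mice lacked it in the whole body, after CRISPR/Cas9 editing, and the WT mice were their littermates. Both genotypes were on a C57BL/6J background, 20 weeks old, kept on a high-fat diet (HFD) for 3 months and fasted overnight, so no lean, fed or female mouse was measured. Each value is a log2 expression level as the authors deposited it, in 1 table per tissue. A difference of 1 is a doubling.

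Pituitary growth hormone binds its receptor on hepatocytes and other cells and acts through JAK2 and STAT5. It drives transcription of *Igf1*, of *Igfals* and of the feedback inhibitors *Socs2* and *Cish*. Most circulating IGF1 is carried in a complex with an IGF binding protein, mainly IGFBP3 or IGFBP5, and the acid-labile subunit encoded by *Igfals*. The other binding proteins form smaller complexes with IGF, and hepatic *Igfbp1* is held down by insulin and released in fasting.

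Across the members, the clearest difference between genotypes was in *Igfbp3* in the white fat depots. It fell in eWAT, with KO levels 3.08-fold below WT, and *Igfbp4* rose there by 1.36-fold. In iWAT the mean of *Igfbp3* was 4.69-fold lower in KO, with no overlap between genotypes, but it did not pass the adjusted threshold on all 8 arrays. No member passed in liver or BAT. Counts refer to limma, a linear model per gene with variances moderated across genes, and to a Benjamini-Hochberg adjusted p below 0.05 over all 24646 genes of a tissue. In eWAT 2 of 10 members passed, 1 in each direction, against 15.2% of all genes (4.57% higher and 10.7% lower in KO). In liver 0 of 10 passed against 0.661% of all genes, in iWAT 0 of 10 against 0% and in BAT 0 of 10 against 0.0284%. At an unadjusted p below 0.05, 2 of 10 members passed in liver (13.3% of all genes), 4 in eWAT (29.8%), 3 in iWAT (15.4%) and 0 in BAT (12.7%). The median difference over the members, KO minus WT, was 0.00 in liver, 0.05 in eWAT, 0.08 in iWAT and -0.05 in BAT, beside 0.01, 0.03, 0.02 and 0.00 over all genes. The members' share of calls was thus near the background in every tissue.

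**Figure D1:**
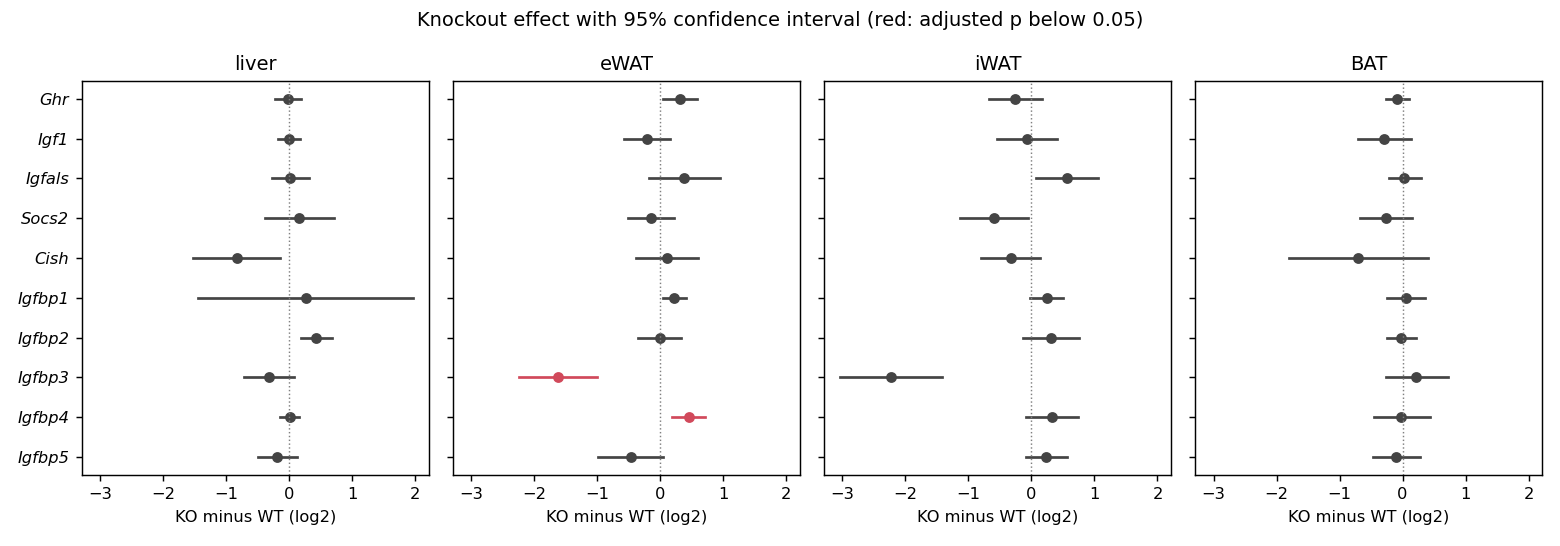
Difference between KO and WT (x axis, log2 units) for each member (y axis) in the 4 tissues. Points are the limma estimates, lines their 95% confidence intervals, and red marks an adjusted p below 0.05. *Igfbp3* lies at -1.62 in eWAT and -2.23 in iWAT, whereas its intervals in liver and BAT cross 0.

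The targeted gene was lower in KO in all 4 tissues. *Gpr146* differed, KO minus WT, by -1.77 (liver), -1.53 (eWAT), -1.55 (iWAT) and -1.16 (BAT). No KO array reached the lowest WT array of its tissue. The adjusted p was 6.55e-06 in liver, 0.00823 in eWAT, 0.221 in iWAT and 0.0727 in BAT (limma). The hepatocyte markers stood at a summed log2 level of 14.12 to 14.22 in all liver arrays and the brown adipocyte markers at 13.01 to 13.20 in all BAT arrays. Some arrays stood apart by cell content. In iWAT the summed B-cell markers were at 10.88 and 10.78 in WT 1 and 2, at 10.54 in KO 2 and at 8.72 in KO 4, and between 6.11 and 6.45 in the other 4 arrays. In BAT the skeletal muscle markers were at 10.20 to 11.11 in WT 2, WT 3 and KO 2 and at 5.98 to 6.84 in the other 5. In eWAT, KO 2 was the array nearest WT in macrophage markers, at 12.08 against 9.16 to 10.30 in the other KO arrays and 12.45 to 12.57 in WT. In a bulk tissue, fewer cells of a type and less RNA per cell cannot be told apart.

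*Igfbp3* encodes the main carrier of IGFs in blood. In eWAT its log2 level was 6.19, 6.36, 6.77 and 6.49 in WT 1 to 4 and 4.91, 5.67, 4.50 and 4.23 in KO 1 to 4. All KO arrays were below all WT arrays, and KO 2 was the highest of the KO group. The mean fell from 6.45 ± 0.25 (SD, n = 4) to 4.83 ± 0.63 (SD, n = 4), a log2 difference of -1.62 (standard error 0.28, 95% confidence interval -2.24 to -1.01, adjusted p = 0.00995, limma). The two-sided exact permutation test gave p = 0.0286, the smallest that the 70 relabelings of 4 against 4 mice allow. With KO 2 left out, the difference was -1.90 (adjusted p = 9.84e-05, limma). That array held the highest KO value, so leaving it out widens the difference by itself. Leaving out any other single array gave an adjusted p between 0.0226 (without KO 3) and 0.0375 (without WT 2, limma).

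In iWAT *Igfbp3* measured 7.19, 7.33, 7.41 and 7.43 in WT 1 to 4 and 4.48, 5.99, 4.27 and 5.70 in KO 1 to 4. The WT arrays lay close together, and the KO arrays formed a lower and a higher pair. The mean was 7.34 ± 0.11 in WT and 5.11 ± 0.86 in KO (SD, n = 4 each), a log2 difference of -2.23 (standard error 0.36, interval -3.04 to -1.42, adjusted p = 0.221, limma; exact permutation p = 0.0286). The higher pair, KO 2 and KO 4, were the KO arrays with B-cell markers, whereas the WT arrays had an *Igfbp3* of 7.19 and 7.33 with those markers and of 7.41 and 7.43 without them. Without the 4 arrays with B-cell markers, a choice made after seeing the data that leaves 2 WT and 2 KO arrays, the difference was -3.04 (adjusted p = 0.00251, limma). With the mean of the B-cell markers as a covariate, also chosen after seeing the data, it was -2.17 (adjusted p = 0.0443, limma). With single arrays left out, the difference passed only without KO 2, at -2.52 (adjusted p = 0.0395, limma). KO 2 held the highest KO value, so leaving it out widens the difference by itself. In each of these 3 fits *Igfbp3* was the 1 member of 10 that passed, beside 3.72% of all genes without the 4 arrays, 0.398% with the covariate and 0.921% without KO 2.

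In liver *Igfbp3* measured 4.69, 4.99, 4.51 and 4.60 in WT and 4.03, 4.92, 4.08 and 4.48 in KO. The genotypes overlapped, with KO 2 near the top of the WT range, and the difference of -0.32 (standard error 0.18) had an adjusted p of 0.491 (limma). In BAT the levels were 4.32, 5.39, 4.25 and 4.58 in WT and 4.87, 4.85, 4.64 and 5.08 in KO. There the difference was 0.22 (interval -0.27 to 0.72, adjusted p = 0.743, limma), opposite in sign to the other tissues.

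The difference between tissues was tested on the value in eWAT minus the value in another tissue for each replicate number, KO against WT. For *Igfbp3* the eWAT effect minus the liver effect was -1.30 on the log2 scale (interval -1.87 to -0.73, adjusted p = 0.0144, limma) and the eWAT effect minus the BAT effect was -1.85 (interval -2.65 to -1.04, adjusted p = 0.0166). Against iWAT the difference was 0.61 (interval -0.19 to 1.40, adjusted p = 0.596), so the eWAT and iWAT effects were not told apart at 4 mice a group. *Igfbp3* was the 1 member of 10 past the threshold against liver, where 8.37% of all genes passed, and against BAT, where 6.93% did. Against iWAT 0 members passed, and 0% of all genes. At an unadjusted p below 0.05 the counts were 4 of 10 against liver (21.3% of all genes), 2 against iWAT (10.8%) and 2 against BAT (20.3%). The eWAT arrays are shared by these 3 comparisons. The labels give each array a mouse number, but do not state that a number marks the same mouse in every tissue. In a fit of the 16 arrays that did not use the numbers, *Igfbp3* also passed against liver and BAT. Without WT 4 the call against BAT was lost (-1.81, adjusted p = 0.0551).

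**Figure D2:**
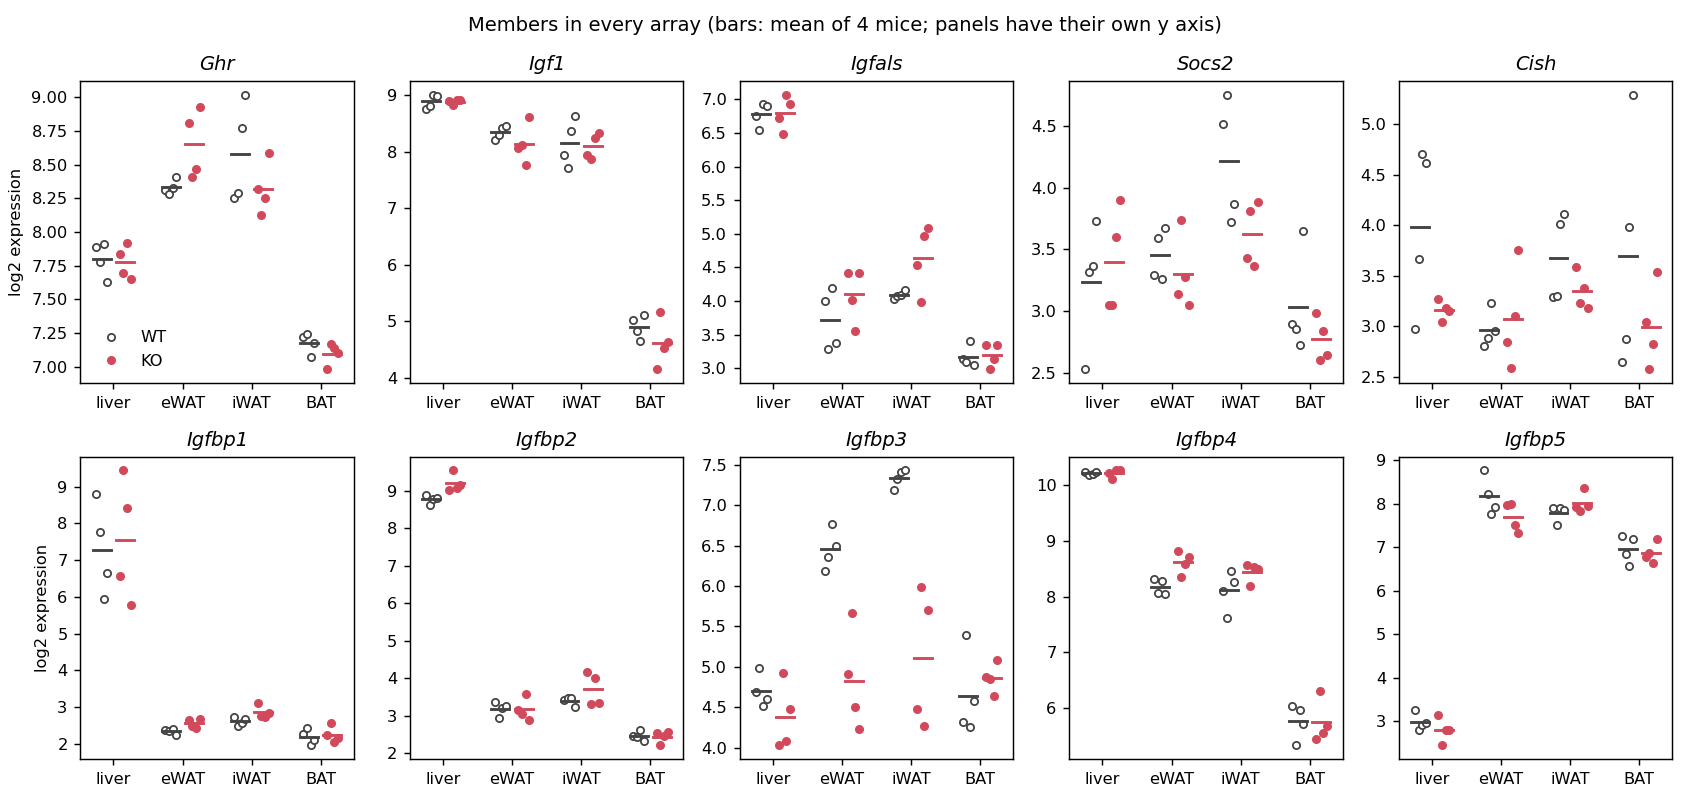
Log2 expression (y axis, own scale per panel) of each member in every array of liver, eWAT, iWAT and BAT (x axis). Open circles are WT mice, filled circles KO mice and bars the mean of 4 mice. *Igfbp3* separates in eWAT and iWAT, and *Igfbp1* in liver spans 5.77 to 9.44 across both genotypes.

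Markers of several cell types moved with *Igfbp3* in eWAT. All 9 macrophage markers fell there, and their summed log2 level was 12.45 to 12.57 in WT and 9.16 to 12.08 in KO. Of 9 markers of adipose progenitors and fibroblasts 7 fell, with a summed level of 12.08 to 12.20 in WT and 11.02 to 11.83 in KO. Of 5 mesothelial markers 2 fell (7.31 to 8.88 in WT, 6.69 to 7.14 in KO), 6 of 7 adipocyte markers rose and 1 fell (12.73 to 12.90 in WT, 13.20 to 13.49 in KO), and 0 of 5 endothelial markers passed. In iWAT, where no gene of the table passed, all 9 macrophage markers were lower on average in KO, with a median difference of -0.86. Of them 6 had an unadjusted p below 0.05 (limma), beside 15.4% of all genes. The macrophage sum in iWAT was 9.68 to 10.82 in WT and 8.78 to 9.80 in KO, and the progenitor and fibroblast sum was 11.19 to 12.15 and 11.25 to 11.57. The mesothelial markers *Msln* and *Upk3b* had WT means of 2.51 and 2.98 in iWAT, below the median gene of that table, and the mesothelial sum was 5.02 to 5.14 in WT and 5.17 to 5.46 in KO. The part of these cell types in the *Igfbp3* difference was not tested.

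**Figure D3:**
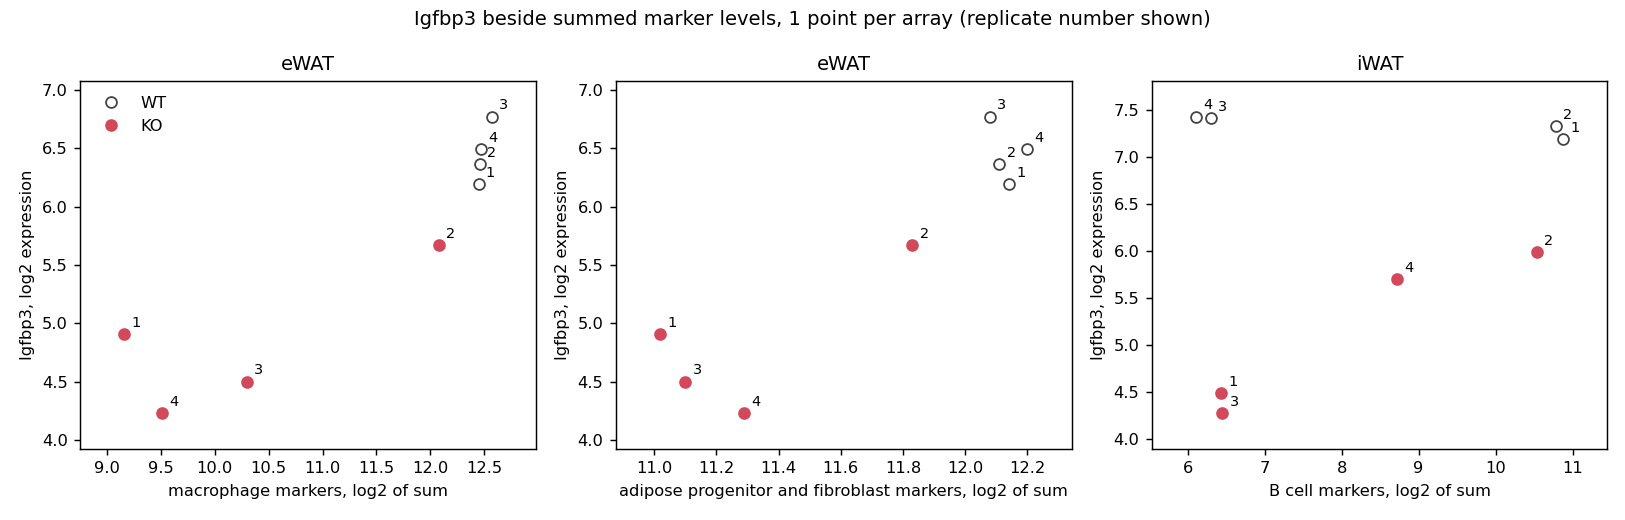
*Igfbp3* (y axis, log2 expression) against the log2 of the summed level of macrophage markers in eWAT, of progenitor and fibroblast markers in eWAT and of B-cell markers in iWAT (x axes), 1 point per array with its replicate number, WT open and KO filled. In eWAT KO 2 lies nearest WT on both axes, and in iWAT the 2 WT arrays without B-cell markers are at 7.41 and 7.43 and the 2 such KO arrays at 4.48 and 4.27.

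The genes whose pattern was most like that of *Igfbp3* over the 32 arrays, after each tissue's mean was subtracted, were *Iqgap2* (Pearson r = 0.90, Spearman rho = 0.75), *Atp6v0e* (0.89 and 0.87) and *Stambpl1* (0.89 and 0.80). These values are a description: the 3 were the highest of all non-member genes, and all share the arrays, their genotypes and their cell content.

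*Igfbp3* is a neighbour of *Igfbp1* on chromosome 11, with 0 genes between them in the RefSeq annotation of GRCm38.p6. In eWAT, *Igfbp1* measured 2.24 to 2.39 in WT and 2.44 to 2.68 in KO (difference 0.22, adjusted p = 0.102, limma), at levels below the median gene of the table (WT mean -0.82 relative to it). Promoter windows, from 250 bases before a start to 50 after it, were given by RefSeq for 9 of the 10 members. They are shown here for this neighbouring pair, which differed in tissue and genotype pattern, and for *Cish*, which of the members varied most between WT mice in BAT. The motifs searched on both strands were TTCNNNGAA, bound by STAT5, and GTAAACA and CAAAACA, forms bound by the insulin-restrained factor FOXO1; matches are in capitals.

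*Igfbp3*, GRCm38.p6 chr11:7213874-7214173, minus strand: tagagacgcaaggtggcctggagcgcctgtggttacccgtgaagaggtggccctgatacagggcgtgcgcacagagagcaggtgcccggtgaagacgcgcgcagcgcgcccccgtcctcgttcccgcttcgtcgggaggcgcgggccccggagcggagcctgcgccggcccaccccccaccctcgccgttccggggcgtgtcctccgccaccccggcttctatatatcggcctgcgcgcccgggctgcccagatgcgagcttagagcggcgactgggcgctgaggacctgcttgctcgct
*Igfbp1*, GRCm38.p6 chr11:7197537-7197836, plus strand: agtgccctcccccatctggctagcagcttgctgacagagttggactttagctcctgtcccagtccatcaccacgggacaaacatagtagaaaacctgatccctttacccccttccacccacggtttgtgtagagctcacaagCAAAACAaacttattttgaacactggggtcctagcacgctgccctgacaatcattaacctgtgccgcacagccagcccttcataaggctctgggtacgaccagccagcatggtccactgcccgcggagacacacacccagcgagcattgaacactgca
*Cish*, GRCm38.p6 chr9:107296409-107296708, plus strand: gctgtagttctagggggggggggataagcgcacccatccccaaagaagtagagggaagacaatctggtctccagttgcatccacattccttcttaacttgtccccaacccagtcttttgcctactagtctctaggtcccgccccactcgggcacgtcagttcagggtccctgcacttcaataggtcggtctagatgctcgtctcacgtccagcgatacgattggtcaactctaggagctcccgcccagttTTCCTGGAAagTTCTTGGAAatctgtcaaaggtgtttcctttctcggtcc

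The *Cish* window held TTCNNNGAA 2 times, from base 251 and from base 262 of the window, and *Igfbp1* held CAAAACA once, from base 143. *Igfbp3* held none of the 3 motifs in its window. TTCNNNGAA was present in 8.30% of all 32851 windows, GTAAACA in 3.65% and CAAAACA in 6.28%. Of the other members, *Igfals* held TTCNNNGAA in 2 of its 3 windows and GTAAACA in 1, and no match was found in the windows of *Ghr*, *Igf1*, *Igfbp2*, *Igfbp4* and *Igfbp5*. A match describes the letters only, and their absence says nothing of the factors.

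*Igfbp4*, whose protein binds IGFs and is cleaved by the protease PAPP-A, was the other member past the threshold in eWAT. It measured 8.31, 8.06, 8.28 and 8.05 in WT and 8.82, 8.35, 8.59 and 8.72 in KO. Each KO array was above every WT array, and KO 2 was again the closest to WT. The mean rose from 8.17 ± 0.14 to 8.62 ± 0.20 (SD, n = 4 each), a log2 difference of 0.45 (standard error 0.12, interval 0.19 to 0.71, adjusted p = 0.0301, limma; exact permutation p = 0.0286). The call was lost without WT 2, WT 3, WT 4, KO 1, KO 3 or KO 4, with adjusted p between 0.0516 and 0.0926. In iWAT the difference was 0.33 (adjusted p = 0.395). It was 0.01 in liver, where the WT arrays lay between 10.18 and 10.25 and the KO arrays between 10.12 and 10.27, and -0.02 in BAT. The eWAT effect differed from the liver effect by 0.44 (interval 0.17 to 0.72, adjusted p = 0.0523, limma). The genes most like *Igfbp4* over the 32 centred arrays were *Retn* (Pearson r = 0.86, Spearman rho = 0.86), *Cyp2e1* (0.83 and 0.73) and *Slc7a10* (0.81 and 0.81), again as a description. *Retn*, which encodes resistin, is one of the adipocyte markers, 6 of 7 of which rose in eWAT as given above.

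*Ghr*, the growth hormone receptor, measured 8.31, 8.28, 8.33 and 8.41 in WT eWAT and 8.81, 8.41, 8.47 and 8.93 in KO eWAT. The lowest KO array was level with the highest WT array to the printed precision. The difference of 0.32 (interval 0.05 to 0.59) had an adjusted p of 0.107 (limma). With single arrays left out, *Ghr* passed only without KO 2, at 0.40 (adjusted p = 0.0332, limma). KO 2 held the lowest KO value, so leaving it out widens the difference by itself. *Ghr* also passed with array quality weights and after quantile normalization. In iWAT the difference was -0.26 (adjusted p = 0.496), in liver -0.02 and in BAT -0.08, with intervals of -0.22 to 0.18 in liver and -0.26 to 0.10 in BAT. The eWAT and iWAT effects of *Ghr* differed by 0.58 (interval 0.20 to 0.96, adjusted p = 0.243).

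*Igf1*, the growth factor itself, differed little between genotypes in liver, its main endocrine source. There it measured 8.76, 8.82, 9.01 and 8.99 in WT and 8.90, 8.83, 8.91 and 8.92 in KO, a difference of 0.00 (interval -0.18 to 0.17, adjusted p = 0.991, limma). The KO minus WT difference was -0.21 in eWAT (interval -0.57 to 0.15), -0.07 in iWAT (-0.54 to 0.40) and -0.29 in BAT (-0.71 to 0.14). In BAT the KO levels of 4.15, 5.16, 4.53 and 4.64 overlapped the WT levels of 5.03, 4.83, 4.65 and 5.11. *Igfals* was as level in liver, with 6.54 to 6.94 in WT and 6.48 to 7.07 in KO (difference 0.02, interval -0.27 to 0.31). In iWAT *Igfals* was 4.03, 4.07, 4.09 and 4.16 in WT and 4.54, 3.98, 4.97 and 5.09 in KO. The only KO array not above WT was KO 2, and the difference of 0.56 had an adjusted p of 0.289.

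*Cish* and *Socs2* are induced by STAT5 and shut off growth hormone signalling. In liver, *Cish* measured 2.97, 3.66, 4.70 and 4.61 in WT 1 to 4 and 3.27, 3.04, 3.18 and 3.15 in KO 1 to 4. WT 3 and WT 4 were over 1 log2 unit above all KO arrays, and WT 1 was below them. The mean was 3.98 ± 0.83 in WT and 3.16 ± 0.09 in KO (SD, n = 4 each), a difference of -0.83 (interval -1.52 to -0.14, adjusted p = 0.282, limma; exact permutation p = 0.143). In iWAT *Cish* was 3.29, 3.30, 4.01 and 4.11 in WT and 3.18 to 3.58 in KO. In BAT it was 2.64, 2.87, 3.98 and 5.29 in WT and 3.04, 2.57, 2.82 and 3.54 in KO. WT 3 and WT 4 were thus the 2 highest WT arrays in liver, iWAT and BAT. In eWAT they were so at 3.23 and 2.95, with WT 2 close behind at 2.88. The WT mean there was -0.19 relative to the median gene, and -0.02 in iWAT. In liver the KO mean of 3.16 was near the median gene, at 3.02. The eWAT range was narrower, and the highest eWAT array was KO 4 at 3.75. The difference between genotypes did not pass in any tissue, with adjusted p of 0.795 in eWAT, 0.444 in iWAT and 0.614 in BAT. The *Cish* window printed above is the one with 2 matches to TTCNNNGAA.

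*Socs2* did not follow *Cish* array by array. In liver it measured 2.53, 3.32, 3.37 and 3.73 in WT and 3.05, 3.05, 3.60 and 3.90 in KO, with number 4 the highest in both genotypes. The difference was 0.16 (interval -0.39 to 0.71, adjusted p = 0.844, limma). In iWAT it was 4.51, 4.75, 3.72 and 3.87 in WT and 3.43, 3.81, 3.37 and 3.88 in KO, a difference of -0.59 (adjusted p = 0.299). The 2 high WT arrays are those with B-cell markers, and the part of those cells was not tested. In BAT WT 4 stood highest at 3.65, as it did for *Cish*, while the other 7 arrays were between 2.61 and 2.99.

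**Figure D4:**
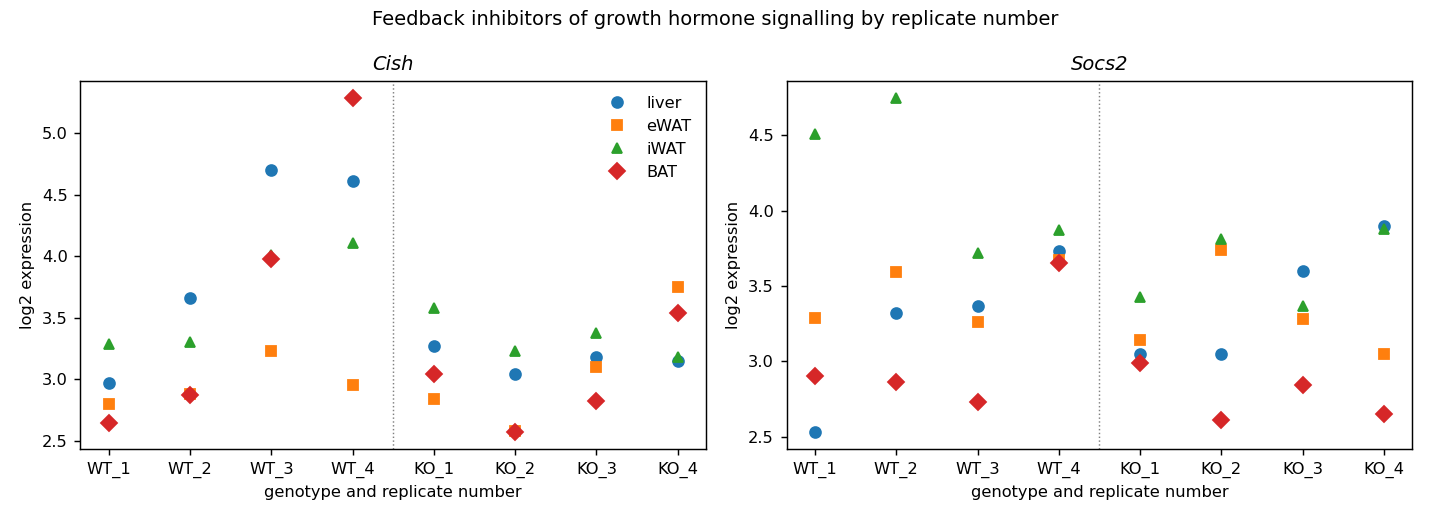
Log2 expression (y axis) of *Cish* and *Socs2* in liver, eWAT, iWAT and BAT by genotype and replicate number (x axis), 1 marker per array. *Cish* is high in WT 3 and WT 4 in liver (4.70 and 4.61), iWAT (4.01 and 4.11) and BAT (3.98 and 5.29).

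*Igfbp1* in liver varied more between mice than any other member, and not by genotype. It measured 8.80, 7.76, 5.93 and 6.66 in WT and 6.58, 9.44, 8.41 and 5.77 in KO. The range of 3.67 log2 units was spanned by KO arrays alone, and the difference of 0.26 had an interval of -1.45 to 1.97 (adjusted p = 0.924, limma). The pooled SD within genotypes was 1.48, against a median of 0.13 over all genes. *Socs2* at 0.47 and *Cish* at 0.59 also exceeded that median, whereas *Igfbp4* at 0.06 was below it. *G6pc*, the glucose-6-phosphatase catalytic subunit and another target restrained by insulin, was 9.07, 8.53, 7.72 and 7.33 in WT and 6.91, 8.73, 8.30 and 7.52 in KO. WT 1, KO 2, KO 3 and WT 2 were the 4 highest arrays for both genes. *G6pc* was set beside *Igfbp1* after its values were seen. It belongs to a list of insulin-repressed FOXO1 targets, in which only *Trib1* also had these 4 arrays highest. *Sesn1* of that list was lowest in WT 1 and WT 2, at 4.32 and 4.24. *Igfbp1* was 4.27 above the median gene in WT liver and below it in all 3 fat depots.

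*Igfbp2*, a hepatic binding protein gene that fasting and leptin are known to raise, measured 8.88, 8.61, 8.78 and 8.80 in WT liver and 9.02, 9.54, 9.08 and 9.16 in KO liver. All KO arrays were above all WT arrays, and KO 2, also the highest in *Igfbp1*, was the highest. The difference of 0.43 (standard error 0.11, interval 0.18 to 0.68) had an adjusted p of 0.126 (limma; exact permutation p = 0.0286). *Igfbp2* was the 1 member of 10 whose genotypes did not overlap in liver, beside 7.78% of all genes. The same count was 4 of 10 in eWAT (*Ghr*, *Igfbp1*, *Igfbp3* and *Igfbp4*; 21.6% of all genes), 1 in iWAT (*Igfbp3*; 8.15%) and 0 in BAT (7.23%). In the fat depots *Igfbp2* lay near the median gene and its differences were -0.01 in eWAT, 0.31 in iWAT and -0.02 in BAT.

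*Igfbp5*, which lies beside *Igfbp2* on chromosome 1 with 0 genes between them in that annotation, had the reverse distribution over tissues. Its WT mean was 5.03 above the median gene in eWAT, 4.13 in BAT and 4.10 in iWAT, and -0.04 relative to it in liver, whereas *Igfbp2* was 5.75 above it in liver. In eWAT *Igfbp5* was 8.77, 8.24, 7.78 and 7.93 in WT and 7.98, 8.01, 7.51 and 7.33 in KO. The genotypes overlapped, and the difference of -0.47 (interval -0.99 to 0.04) had an adjusted p of 0.202 (limma). It was 0.23 in iWAT, -0.10 in BAT and -0.19 in liver, none past the threshold.

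Each tissue has its own table, with the median gene at 3.02 in liver and 3.69 in iWAT. The order of WT levels over tissues is therefore given relative to each table's median gene and without a test. *Igf1* stood 5.87 above it in liver, 5.20 in eWAT, 4.47 in iWAT and 2.07 in BAT, with SDs of 0.11 to 0.42, so that each step exceeded the SD. *Igfals* was 3.77 above it in liver and 0.32 to 0.56 in the fat depots, which did not differ beyond their spread. *Ghr* ran from 5.18 in eWAT through 4.89 in iWAT and 4.78 in liver to 4.34 in BAT, and iWAT was not separated from its neighbours given its SD of 0.37. *Igfbp3* was highest in iWAT (3.64) and eWAT (3.30) and lower in BAT (1.79) and liver (1.68), the last 2 within their spread. *Igfbp4* ran from liver (7.20) through eWAT (5.02) and iWAT (4.42) to BAT (2.92). *Socs2* was 0.19 to 0.52 above the median gene in all 4 tissues, with SDs of 0.21 to 0.51, and *Cish* ran from 0.97 in liver to -0.19 in eWAT, with neighbours within their spread.

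Another 78 genes of the axis were taken from lists of ligands and receptors, signal transduction, binding proteins and their proteases, sex-biased liver targets of growth hormone, repressors of those targets and FOXO1 targets. In eWAT 15 of 78 passed, 7 higher and 8 lower in KO, with a median difference of 0.03 beside 0.03 over all genes and the 15.2% of genes called. Of 8 ligands and receptors, the insulin receptor *Insr* rose by 0.75 (adjusted p = 0.0155) and *Igf2r*, which removes IGF2, fell by 0.76 (adjusted p = 0.0117). Of 9 IGF signalling genes 3 rose: *Irs1* measured 3.69, 3.62, 3.73 and 3.59 in WT and 4.35, 4.13, 4.24 and 4.46 in KO (difference 0.64, adjusted p = 0.00782), *Akt2* rose by 0.62 and the phosphoinositide 3-kinase subunit *Pik3r1* by 0.65 (adjusted p = 0.0484). All 3 act downstream of the insulin receptor too.

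Of 14 growth hormone signalling genes 4 passed in eWAT. *Stat5a* rose by 0.37 (adjusted p = 0.0299), and the phosphatase genes *Ptpn1*, *Ptpn2* and *Ptpn6* fell by 0.40, 0.38 and 1.51. *Ptpn6* is known mainly from blood cells, and the macrophage markers given above moved with it. Of 10 further binding proteins and processing enzymes 4 passed, all lower. *Igfbp6*, which prefers IGF2, measured 8.42, 7.78, 7.45 and 8.03 in WT and 6.30, 7.25, 6.27 and 6.32 in KO (difference -1.39, adjusted p = 0.0117). *Igfbp7* fell by 0.64, and the protease genes *Adam12* and *Mmp3* by 1.52 and 1.37. In *Igfbp6*, *Mmp3*, *Igf2r* and *Adam12*, as in *Igfbp3*, KO 2 was the KO array nearest WT.

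**Figure D5:**
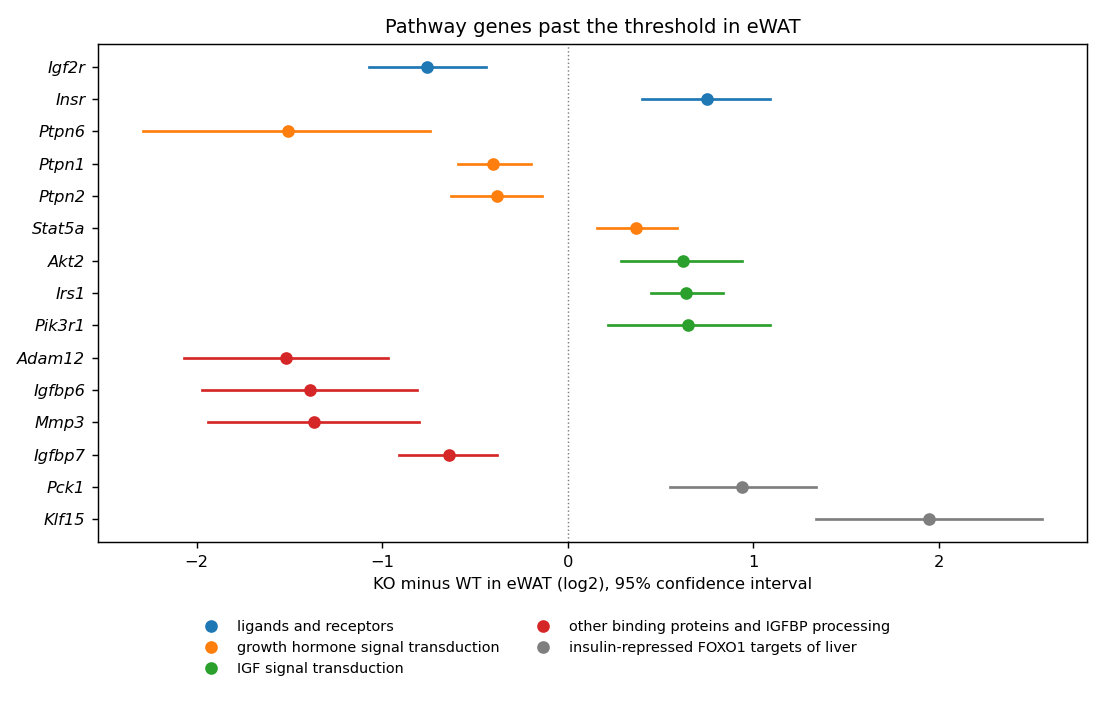
Difference between KO and WT in eWAT (x axis, log2 units, points with 95% confidence intervals) for the 15 pathway genes past the threshold (y axis), coloured by list. All 4 binding protein and processing genes lie below 0 and all 3 IGF signalling genes above it.

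Of 8 genes listed as insulin-repressed FOXO1 targets of liver 2 rose in eWAT. *Klf15*, a transcription factor gene, measured 4.57, 3.38, 4.11 and 4.29 in WT and 6.29, 5.43, 6.04 and 6.39 in KO (difference 1.95, adjusted p = 0.00813), and *Pck1*, which in fat serves glycerol synthesis, rose by 0.94. The male-biased list (13 genes), the female-biased list (10 genes) and the repressors of growth hormone targets (6 genes) held 0 calls in eWAT. At an unadjusted p below 0.05 (limma) they held 6, 0 and 1 genes, beside 29.8% of all genes. Of the 6 male-biased genes, *Cyp7b1*, *Elovl3*, *Cyp4a12a* and *Moxd1* had WT means of 2.98, 1.96, 2.08 and 1.93. These lie below the median gene of the eWAT table, at 3.15. *Mup1* and *Nudt7* were above it, and the 6 genes differed in both directions.

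In liver 2 of 78 pathway genes passed, both lower in KO, with a median of -0.02 beside 0.01 over all genes and the 0.661% of genes called. *Igfbp7*, which binds IGFs weakly and is abundant in blood vessels, measured 6.89, 7.31, 6.98 and 7.20 in WT and 5.14, 6.21, 5.20 and 5.53 in KO (difference -1.57, adjusted p = 0.00906, limma). Markers of several non-hepatocyte cell types moved with it. Of 5 endothelial markers 3 fell (summed level 7.31 to 7.50 in WT, 6.24 to 7.03 in KO), as did 2 of 4 of sinusoidal endothelium (7.81 to 7.97 and 6.67 to 7.42), 2 of 6 of stellate cells (6.90 to 7.41 and 6.13 to 6.77) and 3 of 9 of progenitors and fibroblasts (8.94 to 9.36 and 8.39 to 8.78). Of 5 Kupffer cell markers 0 passed and 5 had an unadjusted p below 0.05 (limma), beside 13.3% of all genes. Their sums were 7.79 to 9.11 in WT and 6.44 to 8.07 in KO. Of 9 macrophage markers 0 passed and 5 had an unadjusted p below 0.05 (limma), with 5 higher and 4 lower on average in KO. The B-cell, T-cell and mesothelial lists held 0 calls, with median differences of 0.08, -0.05 and 0.03. The part of these cells in the *Igfbp7* difference was not tested. *Cyp4a12a*, a male-biased fatty acid hydroxylase gene, measured 6.75 to 7.18 in WT and 6.13 to 6.39 in KO (difference -0.79, adjusted p = 0.0109). It was the 1 called gene of 13 male-biased genes. Of these 13, 3 had an unadjusted p below 0.05 (limma), beside 13.3% of all genes. The other 2 differed the opposite way, *Moxd1* by 3.22 (adjusted p = 0.0996) and *Hsd3b5* by 0.57 (adjusted p = 0.255). *Cyp4a12b*, a near-identical relative of *Cyp4a12a*, differed by -0.22 (adjusted p = 0.579), so hybridization of either to the other's probes cannot be told apart. *Mup1*, *Mup3* and *Mup20*, male-biased urinary protein genes of a family of near-identical copies, differed by 0.03, 0.03 and 0.07. Their WT means of 11.73, 11.66 and 11.54 were close to that of the hepatocyte marker *Alb*, at 11.9. Whether their probes could still register a difference at such levels was not tested. Of 10 female-biased genes 0 passed and 3 had an unadjusted p below 0.05 (limma), beside 13.3% of all genes. These 3 differed in both directions. *Cyp2b9* differed by -2.08, with WT arrays between 2.73 and 7.07, *Cyp17a1* by 0.89 and *Prom1* by 0.25. *Stat5b*, the main STAT5 gene of liver, differed by -0.20 (adjusted p = 0.450) and *Jak2* by -0.37 (adjusted p = 0.198).

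In iWAT and BAT 0 of 78 pathway genes passed, and 12 in each had an unadjusted p below 0.05 (limma). At that cut 15.4% of all genes passed in iWAT and 12.7% in BAT. In iWAT the smallest p belonged to *Mup20* (-0.59), *Klf15* (1.14) and *Onecut1* (0.58), each with an adjusted p of 0.221. *Mup20* and *Onecut1* lay below the median gene of the table. *Klf15* measured 5.46, 4.81, 5.95 and 5.47 in WT iWAT and 6.76, 5.98, 6.91 and 6.59 in KO iWAT, with all KO arrays above all WT arrays. Without the 4 arrays with B-cell markers, where 3.72% of all genes passed, 5 of 78 did so in iWAT: *Klf15* (1.13), *Mup1* (1.35), *Ptpn6* (-0.94), *Grb14* (-0.88) and *Mmp3* (-1.15). In BAT the smallest p belonged to *Mup1* (1.13, adjusted p = 0.104), *Ppargc1a* (-1.14, adjusted p = 0.130) and *Klf15* (0.66, adjusted p = 0.137). Without the 3 BAT arrays with muscle markers 0 members and 0 pathway genes passed.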

How the data were processed

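The authors deposited log2 expression values, 1 table per tissue and 1 value per gene and mouse, made from 100 ng of total RNA on 32 arrays. The software, summarization, normalization and build are not given in the sources used here. Entries with a blank name or a name turned into a number by a spreadsheet (1 or 2 per table) were left out. The 4 liver KO samples carry WT in their titles but KO in every other label, and were used as KO.

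The test was limma (version 3.58.1, in R 4.3.3) on KO against WT within each table, Benjamini-Hochberg adjusted over 24646 genes. Single values were also compared by two-sided exact permutation. Fold values are 2 raised to the log2 difference. Marker sums are log2 of summed linear values. Symbols missing from the tables were matched by older symbols. The members, lists and tests were chosen with earlier results of these data known. Named genes are the members, *Gpr146*, pathway genes past the threshold (otherwise the 3 smallest p) and the 3 genes most like each called member. Others were chosen after their values were seen. Alternatives were other variance priors, array weights, other scaling, dim genes left out, a replicate block, the methods' t-test and each array left out; those on B-cell and muscle markers were added after seeing the data. Across tissues, deviations of arrays with the same number and genotype from group means correlated between -0.15 and 0.30. Of the genes first listed, 1 is not reported here. The fits were run on simulated arrays with independent noise and large shifts. Those arrays held no differences in cell content and no small shifts, so they do not bear on either. The number of arrays limits the precision.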

Additional observations from a re-analysis of the deposited data

Results flagged for a closer look

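Of 80 groups of 4 arrays, 2 held an array far from the other 3, fewer than the 1 in 20 that chance flags. *Igf1* in KO liver was 8.83 in KO 2, below 8.90 to 8.92 in the others. *Igfbp5* in WT iWAT was 7.52 in WT 2, below 7.86 to 7.90 in the others. The KO effect on *Igfbp3* differed between eWAT and liver by -1.30 and between eWAT and BAT by -1.85 (log2, limma on differences per replicate number, adjusted p = 0.0144 and 0.0166).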

How the results depend on the processing

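*Igfbp3* in eWAT passed with each array left out (-1.90 to -1.43) and in every other setting tried except the methods' t-test with Benjamini-Hochberg adjustment (adjusted p = 0.0665), which kept 0 members and 0 pathway genes there and 0 pathway genes in liver. The cause was not tested. The same t-test unadjusted gave 1 member and 10 pathway genes in liver, 4 and 28 in eWAT, 1 and 9 in iWAT, and 11 pathway genes in BAT. By limma at the same cut, 13.3% of all genes passed in liver, 29.8% in eWAT, 15.4% in iWAT and 12.7% in BAT. Array quality weights gave 4 members in eWAT, adding *Ghr* and *Igfbp1*, and 23 pathway genes, and the cause was not tested. Counts from refits are given here without their own share of all genes. They show only how far the calls moved. With single arrays left out, members called ranged from 1 to 3 in eWAT and 0 to 1 in iWAT (1 only without KO 2), and pathway genes from 8 (without WT 2 or WT 4) to 21 in eWAT, 0 to 1 in iWAT and 0 to 1 in BAT (*Mup1*, without WT 1). Without the iWAT arrays with B-cell markers 1 member and 5 pathway genes passed, and with the B-cell covariate 1 and 1. Members whose effect differed between eWAT and liver numbered 2 without joined numbers and after quantile normalization, and 1 to 2 with single mice left out. Between eWAT and BAT they numbered 0 to 2, with 0 without WT 4.

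WT and KO arrays share replicate numbers, which were not treated as pairs. Same-numbered deviations from group means correlated between -0.38 and 0.67 over the tissues, and above 0.1 in 1 of 4 pairs in liver and eWAT and 3 of 4 in iWAT and BAT, so in no tissue in all pairs. The replicate block gave 4 pathway genes in liver, adding *Moxd1* and *Fgf21*, and 3 members in eWAT, adding *Igfbp5* (adjusted p = 0.0446); it moved no other count of calls by over 1.5 times. In each of the 4 tissues 2 of 4 WT arrays correlated best with the KO array of their own number. If the numbers carried no meaning, 1 of 4 would do so on average. What the shared numbers stand for was not tested.

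Small differences that did not pass changed sign. By setting these were *Ghr* in liver (0.01, quantile), *Igfbp4* in liver (-0.01, equal medians), *Igf1* in iWAT (0.08 with weights, 0.07 quantile) and, in BAT, *Igfbp4* (0.05 quantile, 0.02 with a muscle covariate), *Igfbp1* (-0.04) and *Igfbp2* (0.12) without the arrays with muscle markers. With single arrays left out they ranged in liver from -0.08 to 0.02 (*Ghr*), -0.07 to 0.13 (*Igfals*), -0.07 to 0.33 (*Socs2*), -0.37 to 0.86 (*Igfbp1*) and -0.01 to 0.04 (*Igfbp4*). In eWAT the ranges were -0.12 to 0.26 (*Cish*) and -0.15 to 0.08 (*Igfbp2*), in iWAT -0.22 to 0.09 (*Igf1*) and in BAT -0.02 to 0.11 (*Igfals*), -0.05 to 0.14 (*Igfbp1*), -0.06 to 0.06 (*Igfbp2*), -0.20 to 0.08 (*Igfbp4*) and -0.23 to 0.01 (*Igfbp5*).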
